A study of Drosophila melanogaster with 40 samples.

Results

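The regions described here are 894 of the 16759 6mA peaks called outside chromosome Y in 0.75-h Drosophila embryos. They were selected on the peak calls of 3 stages, as the 0.75-h peaks that shared at least 1 bp with a peak of the 6-h list and none with a peak of the 3-h list. Another 769 of the 17528 peaks of the 0.75-h list lie on chromosome Y and were left out. The remaining 0.75-h peaks fell into 1305 called at all 3 stages, 2105 called at 0.75 and 3 h only, and 12455 called at 0.75 h only. The 894 regions met 884 distinct 6-h peaks, which are 37.7% of the 2344 6-h peaks outside chromosome Y.

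6mA-DNA-IP-Seq pulls down sheared genomic DNA with an antibody to N6-methyladenine (6mA) and sequences it against an IgG pull-down of the same stage. The embryos were w1118, the wild-type laboratory strain, taken at 0.75 h, 3 h and 6 h of development, together with 6-h w1118 embryos in which DMAD, the fly 6mA demethylase, had been knocked down by injected double-stranded RNA. The labels do not say whether the 6-h wild-type embryos were injected. In a separate assay, purified Flag-tagged Jumu, a Fox family transcription factor, was used to capture genomic DNA of 0.75-h and 6-h wild-type embryos. Each of these conditions has 1 library, so no difference between conditions has a replicate check. RNA-seq covered 3-h embryos from mothers lacking DMAD (M- DMAD), 3-h embryos lacking maternal jumu (M-,Z+ jumu) or maternal and zygotic jumu (M-,Z- jumu), w1118 controls of both experiments, and w1118 embryos of the 3 stages. The study's alleles were DMAD1 and DMAD2, and jumu1 and jumu2 made with Cas9, and which of them a given library carries is not given in the sources used here. RNA values are 1 pooled FPKM per gene and group, made from 2 libraries.

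In the fly the first nuclear divisions run on RNAs and proteins that the mother loads into the egg. During the maternal-to-zygotic transition these products are cleared and the embryo's own genome is switched on, and by 3 h zygotic transcription is under way. 6mA is a methyl group on the N6 position of adenine that removal by DMAD (gene Tet) keeps low, and the Jumu assay asked whether a forkhead protein preferred such DNA. The pattern described here, a call at 0.75 h, none at 3 h and a call again at 6 h, comes from the peak calls themselves and is a description, not a tested change.

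Most of these regions held more adenine on one strand than on the other, to very different degrees, and a few windows are shown as examples. The 4 member windows below are the central 200 bases of their members, each written 5′ to 3′ on its A-richer strand. They come from members with no 31-base word that recurs in the genome, outside exons and annotated transposons. Among these, the heph and 2L windows ranked high by 6-h 6mA score, and the pyd and CG42784 windows by 0.75-h Jumu score. They do not stand for the highest-scoring regions: the members farther than 1 kb from a gene with the highest 6-h scores outside transposons, 814, 749 and 561, were passed over for recurring words and held 35.5%, 34% and 48% A on the A-richer strand. The window of the highest 6-h score under these limits, 459 with 403 at 0.75 h, is on the X (chrX:72094-72293) and is not printed. It was the least asymmetric of the 5 windows so chosen, with 76 A and 50 T and no AACAAA. In the 4 member windows capitals mark AACAAA, a word chosen after the sequences had been seen. The pyd window is chr3R:8927226-8927425 (dm6, plus strand) in an intron of pyd, which encodes a junction scaffold protein. It held 100 A and 22 T in 200 bases, and its scores were 361 at 0.75 h and 117 at 6 h.
pyd intron: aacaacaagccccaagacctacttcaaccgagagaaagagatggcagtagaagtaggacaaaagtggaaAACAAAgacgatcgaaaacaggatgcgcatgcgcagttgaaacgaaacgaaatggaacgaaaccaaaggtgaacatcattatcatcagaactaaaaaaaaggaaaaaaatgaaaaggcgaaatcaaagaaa
The CG42784 window is chr2L:13488087-13488286 (dm6, plus strand), in introns of CG42784 and CG46308. It held 98 A and 37 T, and its scores were 454 at 0.75 h and 144 at 6 h.
CG42784 intron: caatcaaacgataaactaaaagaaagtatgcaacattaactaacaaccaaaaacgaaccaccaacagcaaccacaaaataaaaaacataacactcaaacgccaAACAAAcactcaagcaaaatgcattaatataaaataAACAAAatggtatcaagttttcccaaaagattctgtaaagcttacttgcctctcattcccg
The next window, chr2L:21605634-21605833 (dm6, plus strand), lies farther than 1 kb from any gene. It held 106 A and 36 T, and its scores were 831 at 0.75 h and 209 at 6 h.
2L intergenic: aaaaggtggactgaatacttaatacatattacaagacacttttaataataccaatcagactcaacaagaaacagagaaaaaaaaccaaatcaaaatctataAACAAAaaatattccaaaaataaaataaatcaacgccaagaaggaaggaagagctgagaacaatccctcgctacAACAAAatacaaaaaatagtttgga
The heph window is chr3R:32009740-32009939 (dm6, plus strand), in an intron of heph, which encodes an RNA-binding splicing regulator. It held 86 A, 51 T and no AACAAA, and it was among the regions with a higher score at 6 h (347) than at 0.75 h (136).
heph intron: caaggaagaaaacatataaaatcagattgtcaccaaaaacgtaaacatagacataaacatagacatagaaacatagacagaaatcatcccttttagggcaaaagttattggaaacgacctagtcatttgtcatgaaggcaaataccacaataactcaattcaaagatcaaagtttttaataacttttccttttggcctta
For contrast, the window of a peak called at 0.75 h only is chr3L:2325367-2325566 (dm6, minus strand), in an intron of MsR1, a myosuppressin receptor gene. It had the highest 0.75-h score, 2036, among such windows that hold CACACACA, marked in capitals. It held 84 A and 28 T, and it also holds AACAAA, left in lower case here.
MsR1 intron: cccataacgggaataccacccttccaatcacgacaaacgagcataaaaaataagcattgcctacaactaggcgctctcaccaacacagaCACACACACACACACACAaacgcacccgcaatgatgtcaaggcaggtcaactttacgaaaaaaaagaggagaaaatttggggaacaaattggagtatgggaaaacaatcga
The printed member windows held 86 to 106 A in 200 bases. The MsR1 window, chosen for its CA repeat, held nearly as many A as the heph window and fewer T, 28 against 51.

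Peak calls come with a score, 10 times the −log10 of the q value at which the peak caller set the region apart from IgG. Scores grow with sequencing depth and are not scaled between libraries. The 894 regions had 0.75-h scores from 21 to 19107 with a median of 290, and 6-h scores from 13 to 7403 with a median of 79. Among peaks called at every stage the median was 1217 in the 0.75-h list and 174 in the 6-h list, and peaks called at 0.75 h only had a median 0.75-h score of 110. The 0.75-h score was the higher one in 797 members, the 6-h score in 95, and both were equal in 2. Their median width was 370 bp, against 631 bp for peaks called at all 3 stages and 232 bp for those called at 0.75 h only. These values chose the members and were not tested.

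**Figure D1:**
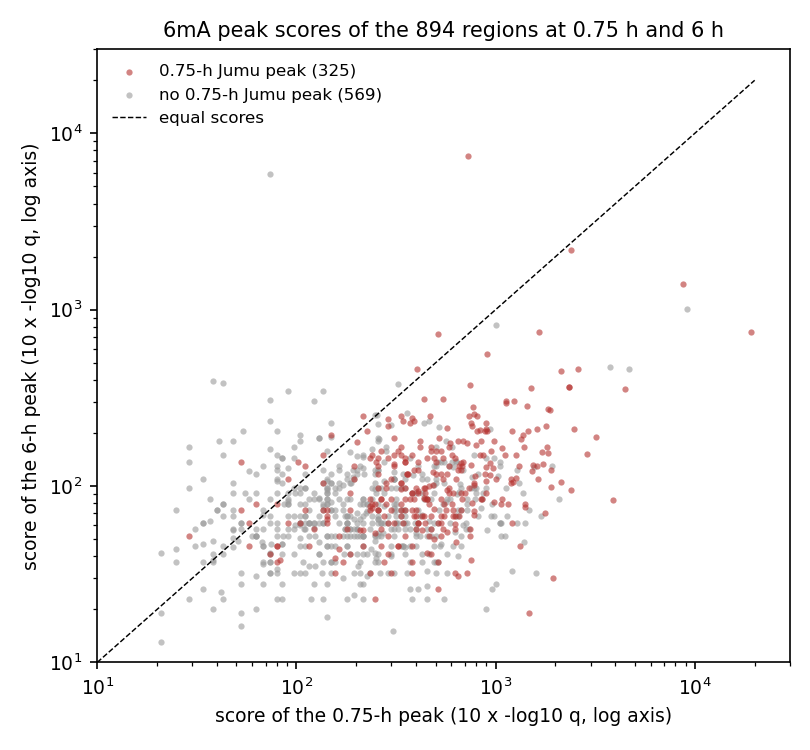
Score of the 0.75-h peak (x axis, log scale) against the score of the overlapping 6-h peak (y axis, log scale) for each of the 894 regions, with the 325 that also met a 0.75-h Jumu peak in red and the other 569 in grey. Most points, 797, lie below the dashed line of equal scores, and red points gather at the higher 0.75-h scores.

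The members with the highest 6-h scores were of very different kinds. The highest, 7403, was a 949-bp peak in HeT-A, the retrotransposon that builds fly telomeres, on chromosome 4 (chr4:1296659-1297607), with a 0.75-h score of 730. The second, 5911, was a 193-bp peak in the 3' UTR of crp, which encodes a helix-loop-helix transcription factor (chr2L:16264852-16265044), with a 0.75-h score of only 74. The third, 2181, was again in HeT-A (chr4:1303354-1303810), with a 0.75-h score of 2380. Members near or in ribosomal RNA genes and pseudogenes on the X numbered 3, and their 0.75-h scores were 9109, 8753 and 4664, beside 1016, 1392 and 460 in the 6-h list. The highest 0.75-h score, 19107, belonged to a 470-bp X region farther than 1 kb from any gene (chrX:23433261-23433730), with 749 at 6 h. In 9 of the 10 members with the highest 6-h score the nearest 3-h peak lay within 1116 bp, and in the tenth it was 7897 bp away. Over all members that distance had a median of 7480.5 bp and ranged from 36 to 259638 bp, with 70 members within 500 bp.

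At the edge of the rule, the member nearest to a 3-h peak lay 36 bp from it, in an intron of rl, the fly ERK kinase gene, with scores of 136 at 0.75 h and 23 at 6 h. The smallest overlap that made a member was 22 bp, in an intron of Maf1, with scores of 42 and 25. Just outside the rule, the smallest overlap with a 3-h peak was also 22 bp, in a 0.75-h peak scored 14 at 0.75 h, 102 at 3 h and 13 at 6 h. No value of the files gives the 3-h signal at a region without a 3-h call, so an absent 3-h call and a signal below the calling limit cannot be told apart.

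Nearly every region was called again when DMAD was knocked down. Of the 894 regions, 870 (97.3%, 95% Clopper-Pearson interval 96.0 to 98.3%) overlapped a peak of the 6-h DMAD knockdown list, against 94.6% of peaks called at all 3 stages, 49.2% of those called at 0.75 and 3 h only and 29.2% (28.4 to 30.03%) of those called at 0.75 h only. The share over all 0.75-h peaks was 40.5%. These intervals, like all others here, cover counting error only. The share was also high for 6-h wild-type peaks at large: 96.0% of all 2344 6-h peaks outside chromosome Y overlapped a knockdown peak, and the knockdown list is 3.42 times as long as the 6-h wild-type list. Among the 83 6-h peaks that met no peak at 0.75 or 3 h, 79.5% (69.2 to 87.6%) did so, and among the 18 that met a 3-h and no 0.75-h peak 8 did (44.4%, 21.5 to 69.2%). The 24 members without a knockdown peak comprised 18 farther than 1 kb from a gene and 6 in introns, so all 282 exonic members had one.

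The knockdown score of these regions was also higher than the wild-type score at the same age. Over the 870 shared regions, the median score was 427 in DMAD knockdown and 79 in wild type, and the median ratio of knockdown over wild type was 5.21. The score was higher in knockdown in 851 of the 870 (97.8%) and lower in 19. For peaks called at all 3 stages the median ratio was 5.34 and the score was higher in knockdown in 88.0%. By their peak names both were called against 1 IgG control, and scores were not scaled for depth, whose part in this ratio was not tested. The HeT-A member on chromosome 4 scored 20981 in knockdown against 7403 in wild type, the crp 3' UTR member 6260 against 5911. At the low end, the member in the 3' UTR of nAChRalpha1, an acetylcholine receptor subunit gene, scored 345 in knockdown against 16 in wild type.

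**Figure D2:**
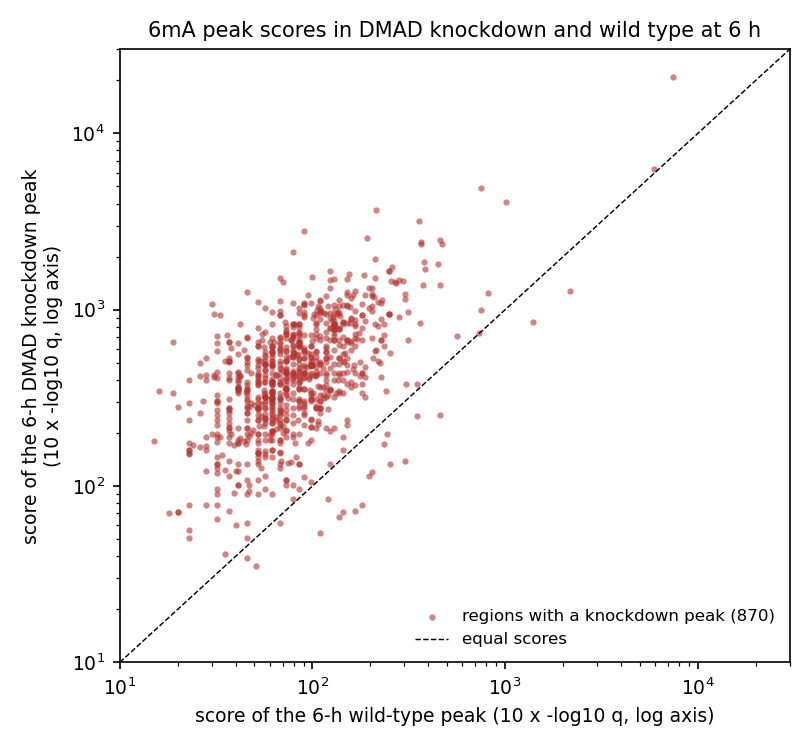
Score of the 6-h DMAD knockdown peak (y axis, log scale) against the score of the 6-h wild-type peak (x axis, log scale) for the 870 regions that had both. In 851 of them the point lies above the dashed line of equal scores.

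Jumu captured DNA at more of these regions with 0.75-h DNA than with 6-h DNA. At 0.75 h, 325 members (36.4%, 33.2 to 39.6%) overlapped a Jumu-binding peak, against 50.9% of peaks called at all 3 stages, 11.2% of those at 0.75 and 3 h only and 3.97% of those at 0.75 h only, with 10.3% over all 0.75-h peaks. At 6 h, 84 members (9.40%, 7.56 to 11.5%) did so, against 37.6%, 2.80% and 0.273% in the same 3 groups and 3.99% over all 0.75-h peaks. A Jumu peak at each of the stages was met by 71 members (7.94%), against 30.3%, 0.998% and 0.145% in the same 3 groups and 3.02% over all 0.75-h peaks. The 0.75-h Jumu list holds 2850 peaks outside chromosome Y and the 6-h list 872, so the lower 6-h share stands beside a shorter list. By their peak names, the 0.75-h Jumu list was called against the same control as the 0.75-h 6mA list. The same holds for the 6-h Jumu list and the 6-h 6mA list. Jumu and 6mA calls of a stage are therefore not independent, and the part of the shared control in these overlaps was not tested.

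Members with a 0.75-h Jumu peak were the stronger ones. Their median 0.75-h score was 483, against 201 for the other 569 members, their median 6-h score 100 against 68 and their median width 439 bp against 334 bp. The share in 3' UTRs was close, 20% of members with a 0.75-h Jumu peak and 20.2% of the others, as was the median adenine content of 47% and 46%. Among members with 0.75-h scores from 143 to 553, their own quartiles, 36.2% met a 0.75-h Jumu peak, against 22.2% of peaks called at all 3 stages and 5.15% of those at 0.75 h only in that score range. In the same range 448 of 453 members (98.9%) met a knockdown peak, against 88.5% and 35.8% in those groups. For 6-h Jumu peaks in that range the order was the reverse, 6.40% of members against 14.3% of peaks called at all 3 stages. At all scores, among peaks with no recurring 31-base word, 33.9% of members and 40% of peaks called at all 3 stages met a 0.75-h Jumu peak. Among peaks made mostly of recurring words these shares were 38.0% and 53.3%.

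The highest Jumu scores among members lay in unlike places. The X region with the highest 0.75-h 6mA score also had the highest 0.75-h Jumu score among members, 1456, and a 6-h Jumu score of 1793. The 18SrRNA pseudogene member had 1202 and 651. The highest 6-h Jumu score, 7063, lay in the coding sequence of CG2839 (chr2L:626515-626820), a region with no 0.75-h Jumu peak, 6mA scores of 54 at 0.75 h and 204 at 6 h, and 65.5% A on the A-richer strand. An intronic member of Moe, the gene of the actin-linking protein moesin, had 1486 at 6 h and no 0.75-h Jumu peak, and one in nAChRalpha3 had 1005.

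**Figure D3:**
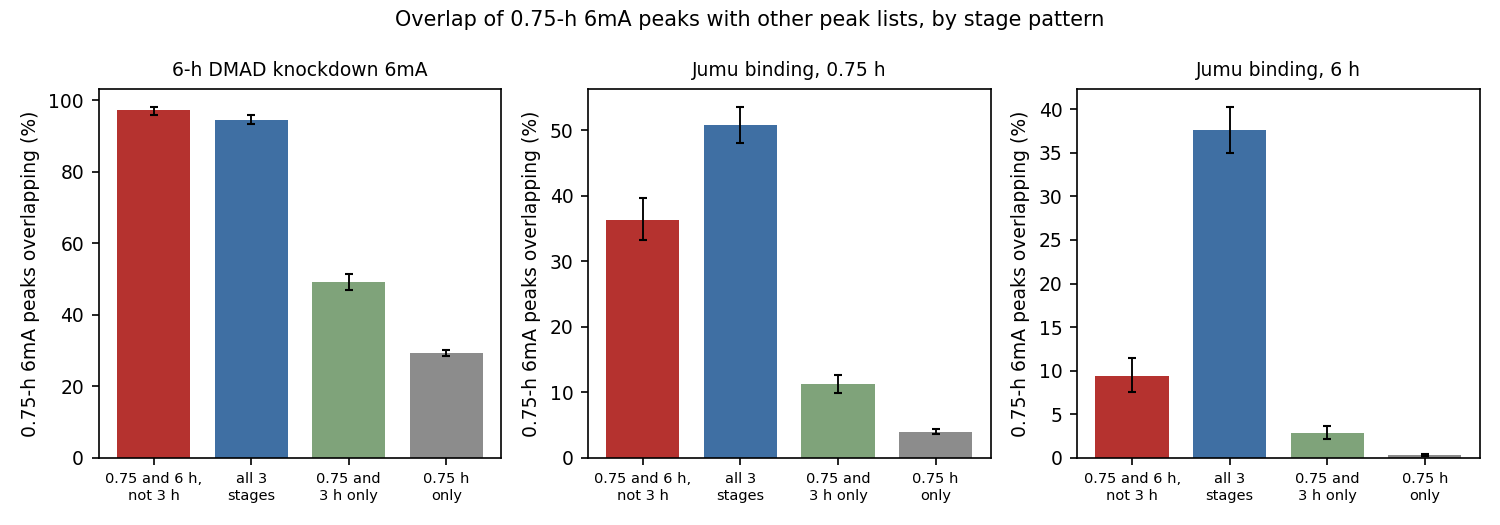
Percent of 0.75-h 6mA peaks (y axis) that overlap a 6-h DMAD knockdown 6mA peak, a 0.75-h Jumu peak or a 6-h Jumu peak, for the 4 stage patterns; error bars are 95% Clopper-Pearson intervals. The regions called at 0.75 and 6 h but not 3 h stand at 97.3%, 36.4% and 9.40%, next to 29.2%, 3.97% and 0.273% for peaks called at 0.75 h only.

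These regions lay in exons, and above all in 3' UTRs, more often than other 0.75-h peaks did. Of the 894 centres, 282 (31.5%, 28.5 to 34.7%) were in an exon, against 15.8% of peaks called at all 3 stages, 8.55% of those at 0.75 and 3 h only, 14.1% (13.5 to 14.8%) of those at 0.75 h only and 26.9% of the 668175 windows of 200 bp that tile the genome. A 3' UTR of some transcript held 180 centres (20.1%, 17.6 to 22.9%), against 8.51%, 5.46%, 5.88% and 5.72% in the same order. A 5' UTR held 52 (5.82%, 4.37 to 7.56%), against 1.76%, 1.47%, 3.72% and 3.40%. Coding sequence held 43 (4.81%), below the 17.1% of genome windows, and introns held 335 (37.5%). With 1 reference transcript per gene in place of all transcripts, the 3' UTR share of members was 12.6%. Gene parts and the adenine content below were compared after the values had been seen.

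The share in 3' UTRs depended on how unique the sequence was. Of the members, 451 (50.4%) held no 31-base word that recurs in the assembled chromosomes, and 292 (32.7%) were made mostly of recurring words. Among the 451, 177 (39.2%, 34.7 to 43.9%) lay in 3' UTRs and 254 (56.3%) in exons. Among single-copy peaks called at all 3 stages the 3' UTR share was 41.4% (34.8 to 48.2%) and the exon share 63.2% (56.4 to 69.6%), and among those called at 0.75 h only the shares were 10.3% (9.53 to 11.0%) and 23.2%. In single-copy sequence the intervals of the regions and of peaks called at all 3 stages overlap, so neither share is particular to the regions there, and both groups stood above peaks called at 0.75 h only. Of the 292 mostly repeated members none was in a 3' UTR, where the interval allows up to 1.26%, and 170 (58.2%) lay farther than 1 kb from a gene.

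**Figure D4:**
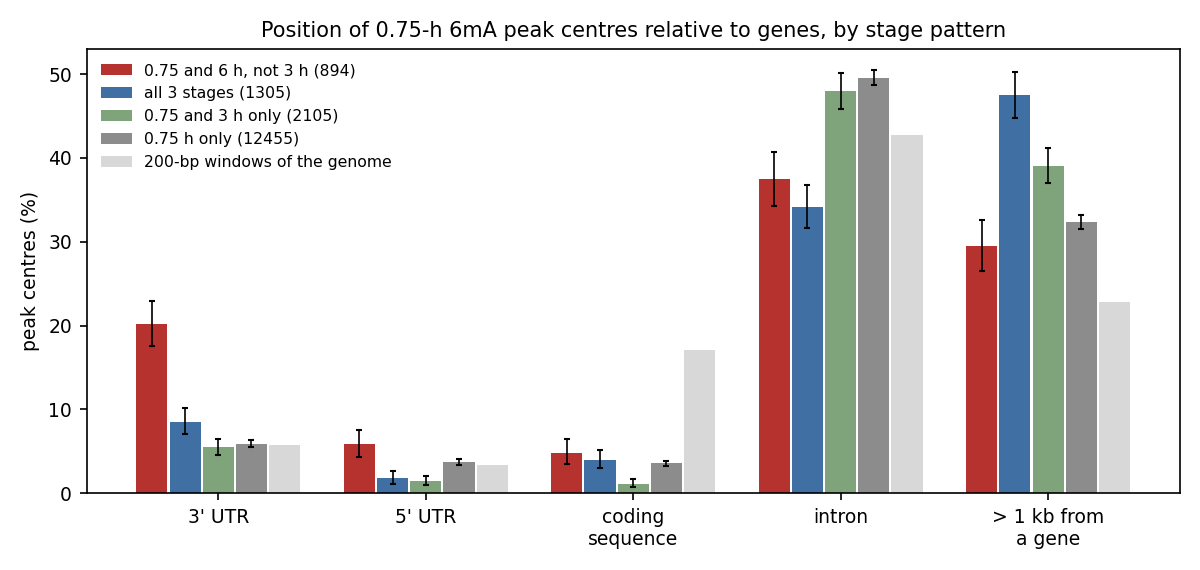
Percent of peak centres (y axis) in 3' UTRs, 5' UTRs, coding sequence, introns and farther than 1 kb from a gene, for the 4 stage patterns and for 200-bp windows tiling the genome; error bars are 95% Clopper-Pearson intervals. The 3' UTR share of regions called at 0.75 and 6 h but not 3 h is 20.1%, against 5.46 to 8.51% in the other patterns and 5.72% in the genome.

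The 3' UTR pieces concerned were long, as were those that held other 0.75-h peaks. The piece of 3' UTR that held a member had a median length of 3169 bp, against 225 bp for the longest piece of each of 13546 genes with one. A long piece offers more places for a peak centre than a short one, so a median over peaks exceeds a median over genes in part by construction. The median was close, 2972 bp, for pieces with a peak called at all 3 stages, and 1962 bp for those with a peak called at 0.75 h only. Over all 1138 0.75-h peaks in 3' UTRs it was 2206.5 bp. Members were spread along them, with the middle of the members at 49.8% of the length from the 5' end and quartiles at 24.9% and 76.0%.

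Several genes with 3' UTR members are given here in the order of their 6-h scores, a choice made after the values were seen. The choice skips genes of that order, among them SP2353 with a 6-h score of 312, Wnt4 with 219, jim with 211 and S6k with 204. It therefore shows no theme of function. The member in fax, needed for axon connections, had scores of 513 at 0.75 h and 731 at 6 h and 741 in knockdown. That in sm, an hnRNP gene, had 2120, 451 and 1815. That in hth, a homeodomain gene, had 1234, 303 and 1225. In rdx, a Cul3 adaptor gene that acts on Hedgehog signalling, the scores were 361, 260 and 1748. In mei-P26, a germline TRIM-NHL gene, they were 776, 256 and 1454, and in fne, of the ELAV family of neuronal RNA-binding proteins, 388, 235 and 625. Further 3' UTR members lay in msi (Musashi), Syp (Syncrip), pros (Prospero), CadN (N-cadherin), Unr, Hrb27C, AGO1 and sqd, with 6-h scores from 151 to 235. The knockdown score of the leading member was above its 6-h wild-type score in each of these genes except msi, with 173 in knockdown against 235 in wild type.

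A few genes held several 3' UTR members. Bsg (basigin, a cell-surface immunoglobulin protein), Sh (the Shaker potassium channel), Imp (an mRNA-binding protein), mamo and jim (zinc-finger factors) had 3 each, and 20 genes had 2. In Bsg the 0.75-h scores were 1461, 217 and 143, with 6-h scores of 204, 151 and 79. In Sh the 0.75-h scores were 388, 379 and 241, with 6-h scores of 124, 91 and 79, and all 3 met a 0.75-h Jumu peak. In 5' UTRs, Unr and nAChRalpha6 held 3 members each, and lilli, Tet and Ih held 2 each. Members within 1 UTR share their gene and are not independent of each other.

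The adenine asymmetry of the printed windows held across the set. In the central 200 bp, the A-richer strand of members held a median of 46.5% A (interval of the median 46 to 47%), against 43.5% in peaks called at all 3 stages, 39% at 0.75 and 3 h only, 37.5% at 0.75 h only and 33% in genome windows. The median T content of that strand was 20.5%, C 19.5% and G 12.5%. The difference between A and T, as a percent of their sum, was at least 20% in 788 members (88.1%, 85.8 to 90.2%), against 64.1% of peaks at 0.75 h only and 25.6% of genome windows. GC content was low, with a median of 32.5% against 31.5%, 38%, 40.5% and 42% in the same order of groups. Members with scores from 143 to 553 were no different in this, with 46.5% A, against 36.5% for peaks at 0.75 h only in that range.

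In transcribed exons the A-rich strand was nearly always the sense strand. Among 282 exonic members it was the sense strand in 274 (97.2%, 94.5 to 98.8%), against 85.4% of exonic peaks called at all 3 stages, 80.8% of those at 0.75 and 3 h only, 89.3% (87.7 to 90.7%) of those at 0.75 h only and 69.1% of exonic genome windows. This held in 176 of 180 members in 3' UTRs (97.8%, 94.4 to 99.4%), in all 52 in 5' UTRs and in all 43 in coding sequence. In the same order of other groups the shares were 95.5%, 91.1% and 90.8% in 3' UTRs. They were 95.7%, 51.6% and 84.8% in 5' UTRs and 76.9%, 95.7% and 98.6% in coding sequence. In each part the interval of at least 1 other group overlapped that of the regions, so the sense side is not particular to the regions there. In introns no such side was seen: the A-rich strand was the sense strand in 169 of 331 members (51.1%, 45.5 to 56.6%), against 46.6% of intronic genome windows.

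**Figure D5:**
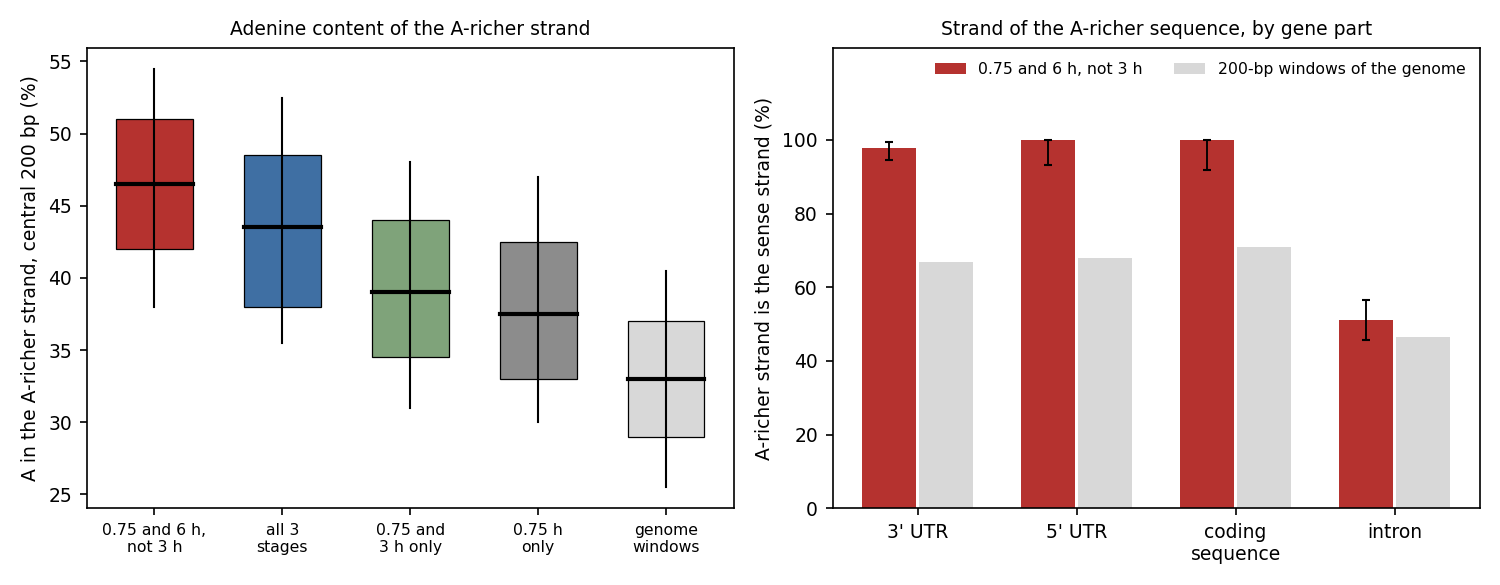
Left, percent A in the A-richer strand of the central 200 bp (y axis) for the 4 stage patterns and genome windows, with the median as a thick line, quartiles as a box and the 10th and 90th percentiles as a thin line. Right, percent of windows whose A-richer strand is the sense strand (y axis), by gene part, for the regions in red with 95% Clopper-Pearson intervals and genome windows in grey. For the regions it is 97.8% in 3' UTRs and 51.1% in introns, and the other stage patterns are not drawn on the right.

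Short sequence words also differed between the groups, and the part of base composition in this was not tested. AACAAA, on either strand, was present in the central 200 bp of 605 members (67.7%, 64.5 to 70.7%), against 51.2%, 41.1% and 42.6% of the other 3 groups and 29.5% of genome windows. CACACACA was present in 86 members (9.62%, 7.77 to 11.7%), against 10.3% of peaks called at all 3 stages, 32.5% of those at 0.75 and 3 h only and 33.0% of those at 0.75 h only, and in 4.08% of genome windows. Among peaks with no recurring 31-base word CACACACA was present in 17.1% of members and 41.8% of peaks called at all 3 stages. Among peaks made mostly of recurring words it was present in 1.71% (0.558 to 3.95%) and 1.56% (0.855 to 2.60%). The near-equal shares over all peaks thus did not hold in single-copy sequence. The forkhead core GTAAACA was present in 47 members (5.26%, 3.89 to 6.93%), against 2.99%, 3.23% and 3.76%, and in 3.81% of genome windows. The Zelda word CAGGTAG was present in 4 members (0.447%), against 1.09% of genome windows, and the GAF word GAGAGAG in 20 (2.24%), against 2.43%. A match is of letters alone, and AACAAA and GTAAACA can share the letters AACA.

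Repeats made up less of these regions than of the other peaks shared between stages. An annotated transposon held 75 centres (8.39%, 6.66 to 10.4%), against 29.6% of peaks called at all 3 stages, 37.6% of those at 0.75 and 3 h only and 18.2% of those at 0.75 h only. The share of genome windows was 5.94%. The central 200 bp were mostly soft-masked, that is marked as repeat in the genome sequence, in 38.4% of members. That share was 66.7%, 63.0% and 36.8% in the same order of groups and 9.12% of genome windows. A tandem repeat of at least 20 bp with a unit of up to 6 bp was found in 39 members (4.36%), against 8.58%, 21.4% and 12.3%. The 75 transposon members came from 36 families, led by 297 and HeT-A with 7 each and 1360, Quasimodo and gypsy4 with 6 each. In the same 3 other groups the counts were 114, 46 and 94 for 297 and 16, 2 and 27 for HeT-A. They were 12, 77 and 204 for 1360, 42, 22 and 51 for Quasimodo, and 0, 2 and 9 for gypsy4. For the retrotransposon roo the counts were 2 members, 11 peaks called at all 3 stages, 254 at 0.75 and 3 h only and 253 at 0.75 h only. The groups differ in size, with 894, 1305, 2105 and 12455 peaks, so these counts are not shares, and no family was tested.

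Chromosome arms contributed 115 members on 2L, 211 on 2R, 217 on 3L, 192 on 3R, 15 on 4 and 144 on X. None of the 14 mitochondrial 0.75-h peaks was a member, which allows a share of up to 23.2%. As a share of the 0.75-h peaks of each arm, members ranged from 4.43% on X to 6.17% on 2R among the large arms, with 7.58% (4.30 to 12.2%) on chromosome 4.

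Most of the genes with the highest number of members were long genes near the centromeres. A gene or its 1-kb flanks held 630 of the 894 centres (70.5%), and 453 genes had at least 1 member, 357 of them exactly 1. Myo81F, an unconventional myosin gene that spans 1965857 bp of 3R, had 51 members, all intronic, among its 702 0.75-h peaks, and 50 of the 51 met a knockdown peak. DIP-lambda (a Dpr-interacting immunoglobulin protein) had 19, Pzl (a relative of the Piezo mechanosensitive channel) 18, CG17684 16, lovit (a histamine transporter gene) 12, Snap25 (a synaptic SNARE gene) 8 and l(3)80Fg 8. None of these members was exonic. The median length of genes with a member was 21112 bp, against 1656 bp over all genes.

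Muc14A and Rdl were different. Muc14A, a mucin gene on the X, had 16 members among 24 0.75-h peaks, all of them in its coding sequence and on the sense strand for A. They made up 16 of the 43 coding members. Their 0.75-h scores ranged from 43 to 343, their 6-h scores from 31 to 347 and at least 78.2% of their 31-base words recurred, so a read within such words has more than 1 place in the genome. Rdl, a GABA receptor subunit gene, had 8 members among 20 peaks, 3 of them exonic, and 6 of the 8 met a 0.75-h Jumu peak.

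Some regulators of early development carried such a region. Of the 8 Hox genes, Antp and Dfd had 1 member each. The Antp member lay in its 5' UTR, with scores of 201 at 0.75 h, 57 at 6 h and 427 in knockdown, and the Dfd member in coding sequence, with 464, 41 and 400. Of 15 regulators of the maternal-to-zygotic transition, Tet, lilli and pum had members. Tet, which encodes DMAD itself, had 3, which scored 104, 91 and 294, then 116, 62 and 261, then 136, 151 and 484, in the order of 0.75 h, 6 h and knockdown. The gene lilli, an AF4-family elongation factor gene, had 4, with 0.75-h scores from 91 to 625 and 6-h scores from 52 to 144, and 2 of them met a 0.75-h Jumu peak. The member in pum, the translational repressor Pumilio, scored 308, 32 and 252. None of the 7 gap, 9 pair-rule and 8 segment polarity genes had a member, and 1, 2 and 4 of them had a 0.75-h peak of any kind. Among the Hox genes 6 of 8 had a 0.75-h peak, and among the transition regulators 12 of 15. Of 17 Fox family genes, CHES-1-like had 2 members and the others none, jumu included. Of 63 genes of neural cell-surface families, DIP-beta, DIP-lambda, Ten-a, dpr10 and dpr21 had members. None of 111 replication-dependent histone genes had one, although 92 of them had a 0.75-h peak. Over all 18164 genes, 2.49% had a member and 22.0% a 0.75-h peak. The lack of a member in the short gap, pair-rule and segment polarity lists is near that share.

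Genes with a 3' UTR member were expressed at higher levels than genes at large. The stage tables are separate and their common scaling is not stated, so levels are read within a stage. The median FPKM of the 145 such genes in the tables was 30.1 in the 0.75-h table, 19.9 in the 3-h table and 29.7 in the 6-h table. Over all genes it was 0.220, 0.946 and 1.14, and over the 3767 genes with a 0.75-h peak 0.351, 1.16 and 1.64. For the 426 genes with any member it was 2.12, 4.89 and 10.4. All genes include those without an annotated 3' UTR. Genes chosen for a long 3' UTR alone were not compared, so the part of that choice in the difference was not tested. The share at 1 FPKM or more among genes with a 3' UTR member was 66.9%, 75.9% and 81.4% at the 3 stages, against 41.5%, 49.5% and 51.0% of all genes. Levels of named genes differed widely within each stage. From the 0.75-h to the 6-h table, rdx had 514, 87.9 and 189 FPKM and mei-P26 88.2, 12.9 and 14.6 FPKM. The gene hth had 2.19, 149 and 210 FPKM, and pros 0.392, 21.5 and 68.6 FPKM. In jim, mamo and Sh the level was under 1 FPKM in all 3 tables.

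The targeted genes were looked at first. Tet stood at 3.41 FPKM in embryos labelled M- DMAD and 1.49 FPKM in wild type. For jumu the level was 103 FPKM in M-,Z+ and 55.5 FPKM in M-,Z- embryos, against 71.8 FPKM in wild type. An RNA level does not show whether a mutant allele makes protein, so these values do not check the labels. Changes below are counted at 1 or more on the log2(FPKM + 1) scale among genes with at least 1 FPKM in some group, without a test, since each group has 1 value.

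Genes with a member changed about as often as all genes. In embryos labelled M- DMAD, 77 of 297 genes with a member (25.9%) were higher than in wild type by this rule, beside 23.0% of all genes, and 18 (6.06%) were lower, beside 5.07%. In both jumu mutants, which share their wild type, 30 of 349 (8.60%) were higher, beside 8.06%, and 25 (7.16%) lower, beside 8.73%. Among genes with a 3' UTR member, 33 of 119 were higher and 4 lower in embryos labelled M- DMAD, and 14 of 135 were higher and 5 lower in both jumu mutants. For all genes with a member these shares lie near the background. The 5 lower genes with a 3' UTR member in both jumu mutants are 3.70%, below the 8.73% of all genes, and this difference was not tested.

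The largest single changes fell on genes of varied function. In embryos labelled M- DMAD, obst-E, a chitin-binding cuticle gene whose member lies in the 3' UTR of its neighbour CG11030, had 129 FPKM against 0.496 FPKM in wild type, and CG13315, whose member lies in the 3' UTR of bol, 121 FPKM against 0.741. At the low side, sog, a BMP antagonist gene with a 5' UTR member, had 13.3 FPKM against 61.9, and wech, a TRIM-NHL gene with a 3' UTR member, 197 FPKM against 706. Both genes were on the low side in the jumu mutants, obst-E with 4.70 and 0.391 FPKM in M-,Z+ and M-,Z- embryos against 22.2 FPKM in wild type, and CG13315 with 1.49 and 1.76 FPKM against 22.8. The wild types of the experiments differ in both genes, 0.496 and 22.2 FPKM for obst-E and 0.741 and 22.8 FPKM for CG13315. Higher in both jumu mutants were Sec16 (a gene of endoplasmic reticulum exit sites), with 31.4 and 40.7 FPKM against 6.51, Marf1, with 98.2 and 216 FPKM against 26.3, and the nuclear receptor gene ftz-f1, with 58.1 and 110 FPKM against 18.9. The potassium channel gene Sh, with its 3 members, had 1.28 and 1.54 FPKM against 6.39. Of the listed regulators with a member, lilli had 23.1 and 36.6 FPKM in the jumu mutants against 9.01 FPKM in wild type, changes of 1.27 and 1.91 on the log2 scale. For pum these were 0.94 and 1.63, so that it did not pass in both.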

How the data were processed

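The 6 peak lists hold positions and scores from 1 library each. Per the study's methods, the authors used Bowtie2 to map reads onto dm6, then MACS2 for peak calling at a q limit of 0.05 against IgG, and no filter on reads in repeated sequence is given there. The deposited score is 10 times the −log10 q, rounded down. RNA-seq values are FPKM that the authors deposited from cuffdiff, 1 pooled value per gene and group, so depth per library and a spread between libraries are unknown here, and limma was not run. The 0.75-h jumu mutant and ovary tables were not used, and knockdown and zld overexpression RNA was not analysed here. No total counts are in these files. Per the study's methods, the 3-h IgG library had the fewest read pairs of the wild-type 6mA and IgG libraries. The 3-h 6mA library had more than the 6-h one and fewer than the 0.75-h one. No depth is given there for the knockdown and Jumu libraries. A longer list can reflect a deeper library, and the part of depth in the calls was not tested.

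Overlap meant at least 1 bp. Peak centres and their central 200 bp were placed on dm6 with Ensembl release 115 genes, transposon insertions not counted as genes. The annotation held 17296 of 17535 genes of the stage tables, 11008 of 11179 of the M- DMAD table and 16464 of 16668 of the jumu table. Shares carry 95% Clopper-Pearson intervals. From the deposited FPKM, changes were taken as log2(FPKM + 1), with a filter of 1 FPKM in some group. The members and gene lists were chosen with earlier results of these data known. Named were the members with the 10 highest 6-h scores, the 5 highest 0.75-h, knockdown and Jumu scores, and the edges of the rule, the genes with the most members, list genes with a member, and the 5 largest changes each way at 5 FPKM or more; not every one is printed, and the sequence of 1 leading member is not reported here. Printed windows were taken outside 2R, exons, UTRs and transposons, and only where no 31-base word recurs. Python 3.11.15, numpy 2.4.6, scipy 1.17.1, pandas 2.3.3 and matplotlib 3.10.9 were used, and the overlap, interval, composition and repeat functions were tested on simulated data. Alternatives covered overlap rules, thresholds, windows, pseudocount, filter and fold.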

Additional observations from a re-analysis of the deposited data

How the results depend on the processing

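No paired analysis was possible because each peak list has 1 library and each RNA group 1 pooled value, and no replicate could be left out for the same reason. Of 42 alternatives, 26 left the value within its counting interval or, for counts, within 1.5 times, and 16 moved it. The number of regions ranged from 683 to 953 over the rules tried. With both peaks sharing 50% of their length, the overlap of members was 77.7% with knockdown, 23.0% with 0.75-h Jumu and 4.70% with 6-h Jumu peaks. With q below 1e-05 the 0.75-h Jumu share was 31.99%. For members with no recurring 31-base word, added after seeing the data like the adenine, strand and 3' UTR alternatives, the shares were 100% for knockdown, 6.65% for 6-h Jumu, 56.3% for exons and 39.2% for 3' UTRs. Any base of the peak in an exon gave 35.5%. Over the whole peak in place of its centre, 32.1% of members were mostly soft-masked, against 38.4%, median GC was 33.3% and median A content 44.7%. Tandem repeats of at least 30 bp were in 0.671% of members. With 1 transcript per gene 12.6% lay in 3' UTRs. A change of 1.5-fold was passed by 161 genes with a member in embryos labelled M- DMAD, against 95 as reported, and by 138 in both jumu mutants, against 55. The filter on low FPKM left the counts as they were by construction. The sense share of exonic members stayed between 96.8 and 98.5%. A missing 3-h call limits every statement on that stage, since unscaled calls cannot show absence of 6mA.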
